A study of Homo sapiens with 12 samples.

Results

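The RNA polymerase subunits (POLR genes), the general transcription factors (GTF genes) and the TBP-associated factors (TAF genes) were followed in RNA that was recovered with the cap-binding protein eIF4E. The genes were chosen by symbol: a probe set counted when the array's annotation gave it 1 gene whose symbol begins with POLR1 to POLR3, GTF2, GTF3 or TAF and a digit, with pseudogenes left out. This gave 65 of the 11963 genes on the array, namely 25 POLR, 20 GTF and 20 TAF genes, with 94 probe sets. No signal entered that rule, but the families were taken up with earlier results of these arrays known, so their counts in the antibody comparison are a description and no independent evidence. Of the 65, 57 were bright enough to be tested.

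MDA-MB-231 is a human breast cancer cell line with mesenchymal features. Cells were either irradiated with 2 Gy of X-rays, with 6 h between exposure and harvest, or left untreated. RNA was pulled down from the lysates either through eIF4E, with an antibody, or with IgG, which recovers RNA that sticks without eIF4E and stands as the background. There were 3 arrays in each of 4 groups: eIF4E precipitates of irradiated cells, eIF4E precipitates of untreated cells, IgG precipitates of irradiated cells and IgG precipitates of untreated cells. Each array holds the RNA of 1 precipitate, and the series describes the replicates as biological. All 4 groups come from this 1 line, grown in serum, and RNA of whole lysates without precipitation was not analysed here. A difference between antibodies therefore says how the recovered RNA was composed, not how much a cell holds, and fewer cells and less RNA per cell cannot be told apart in such bulk samples.

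In the nucleus RNA polymerase I makes ribosomal RNA, RNA polymerase II makes messenger RNA, and RNA polymerase III makes transfer RNA and other short RNAs. Each has a large catalytic core of a largest and a second-largest subunit and a set of smaller subunits, some shared among all the enzymes. General transcription factors place the enzymes at promoters, and TAFs surround the TATA-binding protein TBP in TFIID, at protein-coding promoters, or in SL1, at ribosomal RNA promoters. eIF4E holds the cap at the start of a messenger RNA and brings it to the ribosome.

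Because eIF4E holds the cap, the first bases of a few of these messengers are shown. They are the tested members with the highest and the lowest antibody difference in each family among those with a single start (38 of the 65 members have 1) in the RefSeq table of GRCh38.p14. Lower case marks the 30 bases before the annotated start and capitals mark the first 30 bases of the transcript. The start used in these cells was not measured. POLR2E and POLR2B come first, then GTF2H5 and GTF2H3, then TAF10 and TAF4.
POLR2E (chr19:1095346-1095405, minus strand): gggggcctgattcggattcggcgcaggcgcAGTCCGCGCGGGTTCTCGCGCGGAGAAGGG
POLR2B (chr4:56978866-56978925, plus strand): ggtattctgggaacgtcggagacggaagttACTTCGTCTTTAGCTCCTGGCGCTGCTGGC
GTF2H5 (chr6:158168320-158168379, plus strand): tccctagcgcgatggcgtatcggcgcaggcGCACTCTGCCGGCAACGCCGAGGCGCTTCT
GTF2H3 (chr12:123633799-123633858, plus strand): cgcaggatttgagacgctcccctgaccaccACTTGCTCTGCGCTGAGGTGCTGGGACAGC
TAF10 (chr11:6612187-6612246, minus strand): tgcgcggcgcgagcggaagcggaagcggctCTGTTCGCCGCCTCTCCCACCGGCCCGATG
TAF4 (chr20:62065852-62065911, minus strand): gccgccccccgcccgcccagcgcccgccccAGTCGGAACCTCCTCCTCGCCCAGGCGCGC

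The arrays of the series differed by antibody in more than these genes. Alu repeat signal was 13482 to 18476 on the 6 eIF4E arrays, against 36876 to 53246 on the 6 IgG arrays. The ratio of 3′ to 5′ actin signal, a measure of how complete the RNA is, was 1.33 to 1.53 on eIF4E arrays and 2.96 to 5.38 on IgG arrays. The same ratio for GAPDH was 1.13 to 1.31 on eIF4E arrays and 2.03 to 2.78 on IgG arrays. These controls moved with every antibody difference given here, and their part in it was not tested. Replicate arrays correlated with r of 0.978 to 0.991 in the eIF4E groups and 0.956 to 0.976 in the IgG groups. In every group, replicate 1 had a ratio of the spiked bioB to bioC controls of 0.369 to 0.459, against 0.0351 to 0.0899 on the other arrays. Of 6 mesenchymal markers 5 were bright enough to be tested, and the summed signal of all 6 was 36926 to 42207 on eIF4E arrays and 57662 to 75499 on IgG arrays. Means of VIM, CAV1, MSN and AXL were lower on eIF4E arrays, but ANXA1 was higher, at 10339 against 8278, and SPARC was dim. Of 6 luminal markers only GATA3 and ERBB3 were bright enough to be tested, and the hormone receptors ESR1 and PGR were not. The summed signal of all 6 luminal markers was 731 to 957 on eIF4E arrays and 1021 to 1616 on IgG arrays. None of the 5 liver markers and the 4 leukocyte markers on the array passed the filter.

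Across both treatments, RNA of most polymerase subunits was higher in eIF4E precipitates than in IgG precipitates, GTF genes were split evenly, and more TAF genes were lower than higher. Of the 25 POLR genes 15 were higher, 4 were lower and 6 did not pass the test, an adjusted p under 0.05 in limma over all 7178 genes tested. Of the 17 tested GTF genes 6 were higher and 6 lower, and of the 15 tested TAF genes 4 were higher and 8 lower. Together 25 of the 57 tested members were higher and 18 lower. These counts include TAF12 and TAF1, which passed the brightness filter only through the antibody in which they were brighter. Without them 24 of 55 members were higher and 17 lower, and 3 of 13 TAF genes were higher and 7 lower. Over all genes tested 32.5% were higher and 38.2% lower, so that passing the test is common on these arrays. The median difference, on the scale of log2(signal + 16), was 0.77 over POLR genes, 0.01 over GTF genes and -0.48 over TAF genes, beside -0.07 over all genes tested. The plot of every tested member's difference shows the order within each family.

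**Figure D1:**
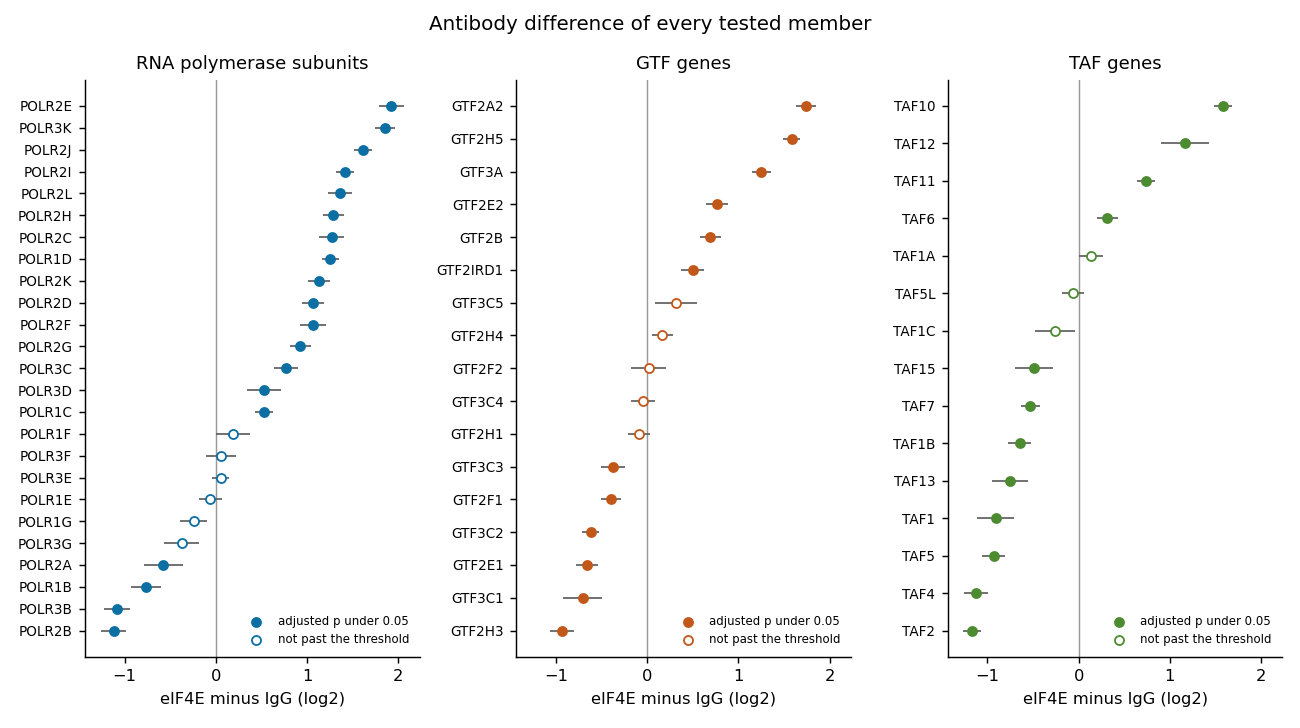
Antibody difference of the 57 tested genes, as eIF4E minus IgG on the log2(signal + 16) scale (horizontal axis), with 1 row for each gene in 3 panels for POLR, GTF and TAF genes. Points are limma estimates over 12 arrays, lines are the SE, and filled points passed an adjusted p of 0.05. POLR2E was the highest at 1.93 and TAF2 the lowest at -1.17. TAF1 and TAF12 passed the brightness filter only through the antibody in which they were brighter.

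Signals of 34 of the 57 members did not overlap between the 6 eIF4E and the 6 IgG arrays, with 21 higher and 13 lower. These include TAF12 (higher) and TAF1 (lower), which passed the brightness filter only through the antibody in which they were brighter. Over all genes tested 49.9% did not overlap. The 23 members that overlapped include 9 that passed the test, POLR2A, POLR2F, POLR3D, GTF2F1, GTF2IRD1, GTF3C3, TAF6, TAF13 and TAF15.

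The subunits that all 3 polymerases contain were higher without exception among the 5 measured, with a median difference of 1.29. POLR2E had signals of 5372, 5338 and 4946 in irradiated and 5853, 5489 and 7081 in untreated eIF4E precipitates, against 1295, 1931 and 1396 in irradiated and 2018, 1067 and 1358 in untreated IgG precipitates. Every eIF4E array was above every IgG array, and the difference was 1.93 ± 0.14 (SE; adjusted p = 6.20e-09), a 3.80-fold higher signal. POLR2L differed by 1.36 ± 0.13, POLR2H by 1.29 ± 0.11, POLR2K by 1.13 ± 0.12 and POLR2F by 1.06 ± 0.15. Of these POLR2F was the exception in its arrays: the lowest eIF4E signal, 1224, lay under the highest IgG signal, 1297. The subunits shared by RNA polymerases I and III, POLR1C and POLR1D, form a scaffold at which those enzymes assemble, and both were higher, by 0.53 ± 0.10 and 1.26 ± 0.09. Their arrays did not overlap between antibodies.

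Among the 7 subunits measured that belong to RNA polymerase II alone, 5 were higher and 2 were lower, and the median was 1.07. POLR2J, part of the scaffold on which the enzyme assembles, had signals of 8014, 7212 and 7642 in irradiated and 8527, 6659.6 and 7837 in untreated eIF4E precipitates, against 2376, 2930.5 and 2532 in irradiated and 2778, 2183 and 2225 in untreated IgG precipitates. POLR2I, a small subunit at the edge of the cleft, had 3577, 4390.1 and 4089 in irradiated and 3868, 3449 and 4335 in untreated eIF4E precipitates, against 1256, 1525 and 1491 in irradiated and 1552, 1412 and 1572 in untreated IgG precipitates. For both genes the antibodies did not overlap, and the differences were 1.61 ± 0.10 (SE; adjusted p = 1.14e-09) for POLR2J and 1.42 ± 0.10 (SE; adjusted p = 2.85e-09) for POLR2I. POLR2C, which pairs with POLR2J, differed by 1.27 ± 0.13, and the stalk subunits POLR2D and POLR2G by 1.07 ± 0.12 and 0.93 ± 0.12. The probe set of POLR2J ends in _x_at, which marks probes that may also detect related genes, so its signal may include its near copies. The probe sets of POLR1B and GTF2H3 end in _x_at as well.

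The pair of largest RNA polymerase II subunits went the other way. POLR2B, the second-largest subunit, which completes the active site, had signals of 1362, 1218 and 1512 in irradiated and 1249, 1329 and 1314 in untreated eIF4E precipitates, against 4955, 2536 and 3203 in irradiated and 2569, 2686 and 2138 in untreated IgG precipitates. All IgG arrays were above all eIF4E arrays, and the difference was -1.12 ± 0.14 (SE; adjusted p = 1.54e-06). POLR2A, the largest subunit, which carries the tail that couples transcription to RNA processing, had 213, 107 and 90.9 in irradiated and 169, 179.8 and 177 in untreated eIF4E precipitates, against 487, 238 and 223 in irradiated and 227, 172 and 150.1 in untreated IgG precipitates. Its arrays overlapped, irradiated IgG replicate 1 stood above all others, and the difference was -0.58 ± 0.21 (SE; adjusted p = 0.0232). Without that array it was -0.40 (adjusted p = 0.0689), and it also missed the threshold without untreated IgG replicate 1 or without irradiated eIF4E replicate 2 or 3.

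Subunits of RNA polymerase III alone ran from 1.86 to -1.08. POLR3K, the small subunit that helps the enzyme cleave and release its transcript, had signals of 1832, 2273 and 2181 in irradiated and 2349, 2061 and 2116 in untreated eIF4E precipitates, against 516, 567 and 733 in irradiated and 598, 514 and 549 in untreated IgG precipitates. The antibodies did not overlap, and the difference was 1.86 ± 0.11 (SE; adjusted p = 6.73e-10). POLR3C and POLR3D, of the subcomplexes that act in initiation and termination, were higher by 0.77 ± 0.13 and 0.53 ± 0.19. POLR3E (0.05) and POLR3F (0.06) lay close to 0 and POLR3G was at -0.37, and none of these 3 passed the test. POLR3B, the second-largest subunit, had signals of 220.0, 264 and 289 in irradiated and 254, 297 and 255 in untreated eIF4E precipitates, against 868, 464 and 656 in irradiated and 523, 530.0 and 476 in untreated IgG precipitates. The groups did not overlap, and the difference was -1.08 ± 0.14 (SE; adjusted p = 3.11e-06). Over the 7 genes 3 were higher and 1 was lower, with a median of 0.06.

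Of the 4 subunits of RNA polymerase I alone none was higher and POLR1B was lower. POLR1B, its second-largest subunit, had signals of 73.1, 86.0 and 76.4 in irradiated and 60.7, 67.9 and 66.0 in untreated eIF4E precipitates, against 118, 142 and 112 in irradiated and 119.6, 182 and 129 in untreated IgG precipitates. These signals are dim, but every IgG array was above every eIF4E array, and the difference was -0.76 ± 0.16 (SE; adjusted p = 5.63e-04). With 1 or 64 in place of 16 added to the signal it was -0.88 or -0.54. The stalk subunit POLR1F was at 0.19, and POLR1E and POLR1G, a pair that resembles TFIIF, were at -0.06 and -0.24. None of the 3 passed the test.

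A pattern noticed after the values were seen concerns the catalytic core. The largest and second-largest subunits measured, POLR1B, POLR2A, POLR2B and POLR3B, were lower in 4 of 4 cases, while of the other 21 subunits 15 were higher and 0 were lower. No test was made of this split. Over all genes tested 38.2% were lower and 32.5% higher. Of the 4, POLR2A had overlapping arrays and lost its call in 6 alternatives of the processing. In untreated cells POLR2A differed by -0.04 (adjusted p = 0.918 in limma). It was also the only largest subunit among them. POLR1B was measured by a dim probe set that ends in _x_at. Neither POLR1B nor POLR2A was tested under the stricter brightness filter. POLR2B and POLR3B did not overlap between antibodies. The plot of signals on every array shows POLR2A, POLR2B and POLR3B beside the highest members.

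**Figure D2:**
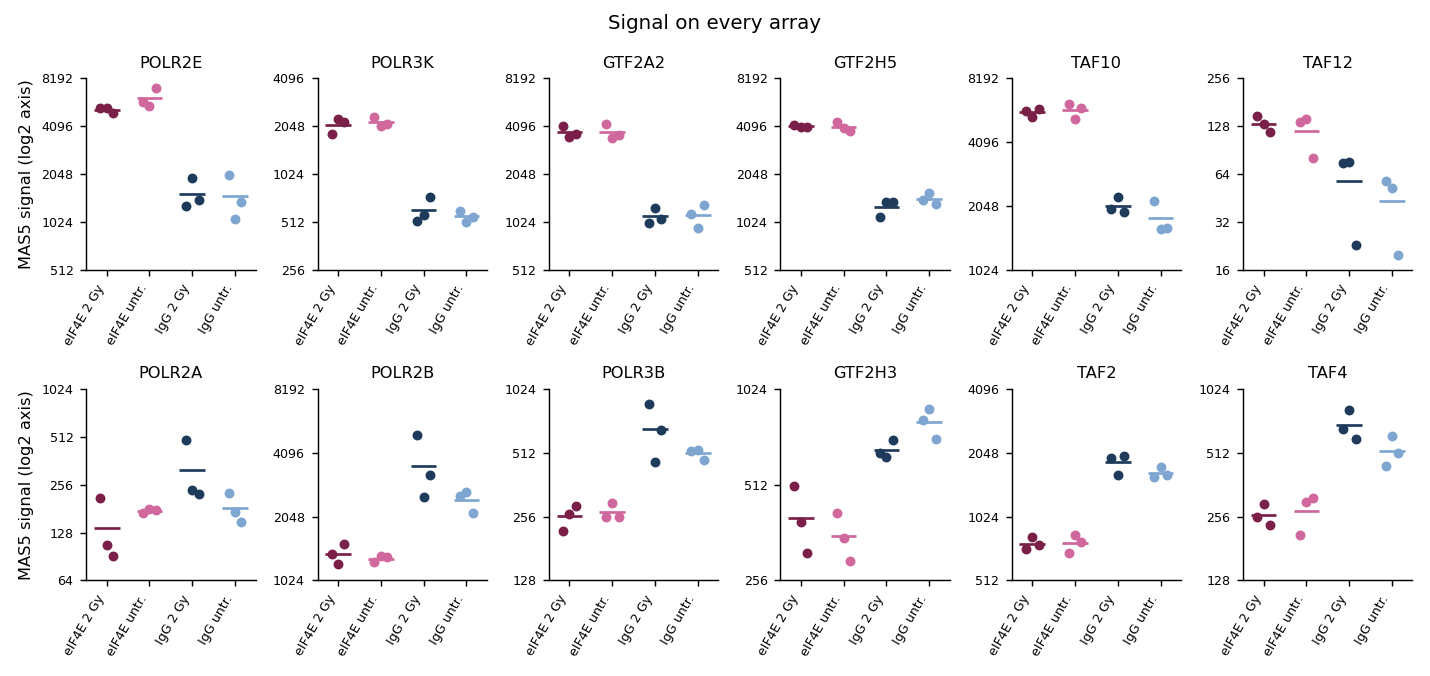
MAS5 signal (vertical log2 axes, which differ between panels) of 12 genes on each of the 12 arrays; points are arrays and bars are the mean of 3. In the upper row the eIF4E groups, at the left of each panel, lie above the IgG groups; in the lower row they lie below, and only POLR2A overlaps.

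The factors that build the promoter complex of RNA polymerase II were divided. Of 6 tested genes of TFIIA, TFIIB, TFIIE and TFIIF, 3 were higher and 2 lower, and their median was 0.35. GTF2A2, the small subunit of TFIIA, which steadies TBP on DNA, had signals of 4101, 3523 and 3667 in irradiated and 4232, 3449 and 3622 in untreated eIF4E precipitates, against 1002, 1259.7 and 1064 in irradiated and 1155, 940.1 and 1307 in untreated IgG precipitates. The antibodies did not overlap, and the difference was 1.74 ± 0.11 (SE; adjusted p = 1.09e-09), a 3.34-fold higher signal. GTF2B, which links TBP to the polymerase, was higher by 0.69 ± 0.11.

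Subunits of 1 complex did not always go together. GTF2E2, the beta subunit of TFIIE, had signals of 1376, 1009 and 982 in irradiated and 1270.2, 1128 and 1174 in untreated eIF4E precipitates, against 542, 656 and 812 in irradiated and 732, 651 and 652 in untreated IgG precipitates. GTF2E1, the alpha subunit, had 372, 334 and 321 in irradiated and 375, 261 and 306 in untreated eIF4E precipitates, against 602, 444 and 533 in irradiated and 500.3, 473 and 612 in untreated IgG precipitates. The arrays of both genes separated by antibody in opposite directions: the difference was 0.76 ± 0.12 (SE; adjusted p = 2.43e-05) for GTF2E2 and -0.66 ± 0.12 (SE; adjusted p = 1.60e-04) for GTF2E1. In TFIIF, GTF2F1 was lower, at -0.40 ± 0.11 (SE; adjusted p = 0.00345) and GTF2F2 was at 0.01 ± 0.19 with overlapping arrays. GTF2A1, which encodes the large subunit of TFIIA, had a geometric mean signal of 35.9 and was not tested.

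TFIIH opens the promoter and also acts in nucleotide excision repair, and its GTF2H genes ran from 1.58 to -0.94. GTF2H5, the smallest subunit, which keeps the complex stable, had signals of 4144, 4044 and 4074 in irradiated and 4347, 3986 and 3820.5 in untreated eIF4E precipitates, against 1094, 1370.1 and 1358 in irradiated and 1406, 1553 and 1334 in untreated IgG precipitates. GTF2H3, a core subunit, had 508, 389 and 313 in irradiated and 419, 348 and 296 in untreated eIF4E precipitates, against 643, 625 and 707 in irradiated and 821, 886 and 714 in untreated IgG precipitates. Neither gene overlapped between antibodies, and the differences were 1.58 ± 0.09 (SE; adjusted p = 6.73e-10) for GTF2H5 and -0.94 ± 0.13 (SE; adjusted p = 6.42e-06) for GTF2H3. GTF2H4 was at 0.17 and GTF2H1 at -0.09, and neither passed the test. Of the TFIIH subunits with other names, taken from a list drawn up with earlier results known, 4 of 5 were higher, 0 were lower, and the median was 0.76. The kinase CDK7 was the highest of them at 0.85 ± 0.10.

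In the TFII-I family, GTF2IRD1 was higher by 0.50 ± 0.13 (SE; adjusted p = 0.00202), with overlapping arrays. GTF2I and GTF2IRD2B had geometric mean signals of 48.4 and 39.9 on their single-gene probe sets and were not tested. Probe sets shared by GTF2I and its pseudogenes, left out by the rule, were brighter, with geometric means of 1738 and 4808.

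Of the factors of RNA polymerase III, TFIIIA stood apart from TFIIIC. GTF3A, which is TFIIIA and binds the 5S ribosomal RNA gene, had signals of 5801, 6483 and 7222 in irradiated and 7684, 5950.2 and 6929.7 in untreated eIF4E precipitates, against 2168, 2997 and 3042 in irradiated and 2886, 2668 and 3029.6 in untreated IgG precipitates. All eIF4E arrays were above all IgG arrays, and the difference was 1.25 ± 0.11 (SE; adjusted p = 3.09e-08). TFIIIC binds the internal promoter of transfer RNA genes, and 3 of its 5 genes were lower. GTF3C1, its largest subunit, had 247, 238 and 269 in irradiated and 192, 277 and 253 in untreated eIF4E precipitates, against 938, 351.1 and 295 in irradiated and 376, 328 and 385 in untreated IgG precipitates. Irradiated IgG replicate 1 was far above the other IgG arrays, but the antibodies did not overlap. The difference was -0.71 ± 0.21 (SE; adjusted p = 0.00686) over all arrays and -0.46 (adjusted p = 0.00444) without that array. GTF3C2 had signals of 659, 613 and 698 in irradiated and 592, 614 and 577 in untreated eIF4E precipitates, against 951, 879.6 and 962 in irradiated and 1063, 956 and 1001 in untreated IgG precipitates, which did not overlap, and differed by -0.62 ± 0.09 (SE; adjusted p = 1.40e-05). GTF3C3 was lower, at -0.37 ± 0.13 (SE; adjusted p = 0.0179) with overlapping arrays. GTF3C4, at -0.05, and GTF3C5, at 0.32, did not pass the test.

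The median over the 10 tested TAFs of TFIID was -0.64, and 4 were higher and 6 lower. TAF1 and TAF12 passed the filter of 57.4 only through the antibody in which they were brighter, so their calls add nothing to these counts. Without them 3 of 8 were higher and 5 lower, and over the TAF family 3 of 13 were higher and 7 lower. Over all families the counts without them were 24 higher and 17 lower of 55. The higher TAF6, TAF10 and TAF11 carry a histone fold, by which TAFs pair, as do TAF12 and the lower TAF4 and TAF13. No test was made of this trait. TAF10, which is also part of the SAGA complex, had signals of 5734, 5364 and 5905 in irradiated and 6204, 5297 and 5955 in untreated eIF4E precipitates, against 1988, 2256 and 1914 in irradiated and 2166, 1588 and 1606 in untreated IgG precipitates. TAF11 had 2114, 2428 and 2262 in irradiated and 2172, 2233 and 2041 in untreated eIF4E precipitates, against 1409, 1351 and 1374 in irradiated and 1061, 1241 and 1519.9 in untreated IgG precipitates. Both separated the antibodies without overlap, by 1.58 ± 0.10 (SE; adjusted p = 1.36e-09) for TAF10 and 0.74 ± 0.10 (SE; adjusted p = 4.98e-06) for TAF11.

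TAF12, another histone-fold TAF of TFIID and SAGA, had 149, 131 and 118 in irradiated and 136, 142 and 80.2 in untreated eIF4E precipitates, against 75.1, 76.0 and 22.8 in irradiated and 57.5, 52.5 and 19.9 in untreated IgG precipitates. The groups did not overlap, but 2 IgG signals, 22.8 and 19.9, were as dim as the liver and leukocyte markers, whose median per array was 4.51 to 24.0. The geometric mean over IgG arrays, 46.3, lay under the filter, so TAF12 was tested only because of its eIF4E arrays. The difference was 1.17 ± 0.26 (SE; adjusted p = 7.51e-04), and it was 1.45 or 0.75 with 1 or 64 added to the signal. TAF6 had 439, 471 and 467 in irradiated and 446, 327 and 472 in untreated eIF4E precipitates, against 346, 317 and 359 in irradiated and 338, 341 and 379 in untreated IgG precipitates. Its arrays overlapped through 1 untreated eIF4E array, and the difference was 0.31 ± 0.11 (SE; adjusted p = 0.022).

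The lower TAFs of TFIID include its largest subunits. TAF2, which contacts DNA at the start site, had signals of 719.9, 816 and 751 in irradiated and 690.1, 839 and 777 in untreated eIF4E precipitates, against 1947, 1613 and 1986 in irradiated and 1571, 1748 and 1611 in untreated IgG precipitates. TAF4, a core subunit, had 256, 293 and 235 in irradiated and 208, 299 and 312 in untreated eIF4E precipitates, against 666, 820.1 and 594 in irradiated and 445, 615 and 509 in untreated IgG precipitates. TAF5, the core subunit with WD repeats, had 607, 472 and 805 in irradiated and 517, 629 and 594 in untreated eIF4E precipitates, against 1253, 1082 and 1502 in irradiated and 1065, 1111 and 967 in untreated IgG precipitates. In these 3 genes no IgG array was as low as any eIF4E array, and the differences were -1.17 ± 0.10 (SE; adjusted p = 2.15e-08) for TAF2, -1.13 ± 0.13 (SE; adjusted p = 1.25e-06) for TAF4 and -0.93 ± 0.13 (SE; adjusted p = 6.73e-06) for TAF5.

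TAF1, the scaffold of TFIID, was dim, with 38.0, 34.6 and 55.2 in irradiated and 60.1, 30.6 and 49.8 in untreated eIF4E precipitates, against 135, 91.1 and 133 in irradiated and 72.5, 78.0 and 83.2 in untreated IgG precipitates. Its geometric mean over eIF4E arrays, 43.7, lay under the filter. It did not overlap between antibodies, and the difference was -0.91 ± 0.20 (SE; adjusted p = 7.60e-04), or -1.12 and -0.57 with 1 and 64 added. TAF7, which binds TAF1, was lower, at -0.53 ± 0.10 (SE; adjusted p = 1.74e-04) without overlap. TAF13, the histone-fold partner of TAF11, was lower, at -0.75 ± 0.20 (SE; adjusted p = 0.0028), so that the partners had opposite signs, and its arrays overlapped.

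Of the SL1 subunits that serve ribosomal RNA promoters, TAF1B was lower, at -0.65 ± 0.13 (SE; adjusted p = 2.34e-04), and TAF1A (0.14) and TAF1C (-0.26) did not pass the test. TAF5L, the SAGA relative of TAF5, was at -0.06. TAF15, an RNA-binding protein, was lower, at -0.48 ± 0.21 (SE; adjusted p = 0.047) with overlapping arrays, and at -0.29 (adjusted p = 0.135) without irradiated IgG replicate 1. Geometric mean signals of 23.7 in TAF1D, 29.7 in TAF4B, 52.8 in TAF6L, 37.4 in TAF7L and 50.1 in TAF9B, on single-gene probe sets, kept those 5 genes from the test. A probe set that the annotation gives to TAF1D and other genes was bright but was left out by the rule. It overlapped between antibodies, with 1484 to 1866 on eIF4E arrays and 1607 to 2210 on IgG arrays.

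Other probe sets of the same genes were compared, since 13 members had several above the filter. In 8 of them all were called the same way. In the others, not all of which are named here, at least 1 probe set was not called or had another direction. The probe sets for POLR2E differed by 1.93 and 2.20, those for POLR2L by 1.36 and 1.73, and those for GTF3A by 1.25 and 1.05. Members disagreed in 2 cases. GTF2H1 had -0.09 on its brightest probe set, which did not pass, and 0.37 (adjusted p = 0.0141) on the other. GTF3C2 had -0.62 on its brightest, -0.40 on another and 0.54 on the remaining one, and all 3 passed. Over all genes with several such probe sets, 743 of 2317 had opposite signs (32.1%). In POLR2C the probe set that represents the gene was at 1.27, but the 2 that end in _x_at were at 0.21 (adjusted p = 0.0597) and 0.04 (adjusted p = 0.911), and the one at 0.21 was the brightest of the 3. In POLR2D they were at 1.07 and 0.25 (adjusted p = 0.284).

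The antibody difference was then set apart by treatment, with different arrays in each. In irradiated cells 23 members were higher and 17 lower, where 27.2% of all genes were higher and 32.3% lower. In untreated cells 24 were higher and 13 lower, where 27.2% of all genes were higher and 31.7% lower. POLR genes had 14 higher and 4 lower in irradiated cells and 15 higher and 3 lower in untreated cells. GTF genes had 5 higher and 5 lower in irradiated cells and 6 higher and 4 lower in untreated cells. TAF genes had 4 higher and 8 lower in irradiated cells and 3 higher and 6 lower in untreated cells. These counts include TAF12 in both treatments and TAF1 in irradiated cells, which passed the filter only through the antibody in which they were brighter.

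The calls of both treatments shared 34 members, all in the same direction, which is 85.0% of the 40 called in irradiated cells and 91.9% of the 37 called in untreated cells. TAF12 is among them, and with the shared spread these calls were not made by separate tests. Over all genes the shared calls were 86.1% of those in irradiated cells and 87.0% of those in untreated cells. Signals did not overlap between antibodies for 40 members in irradiated cells, where 62.4% of all genes did not, and for 42 members in untreated cells, where 66.7% of all genes did not. TAF1 and TAF12 are among these members in both treatments. The plot of both treatments places the members along the diagonal, with a few off it.

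**Figure D3:**
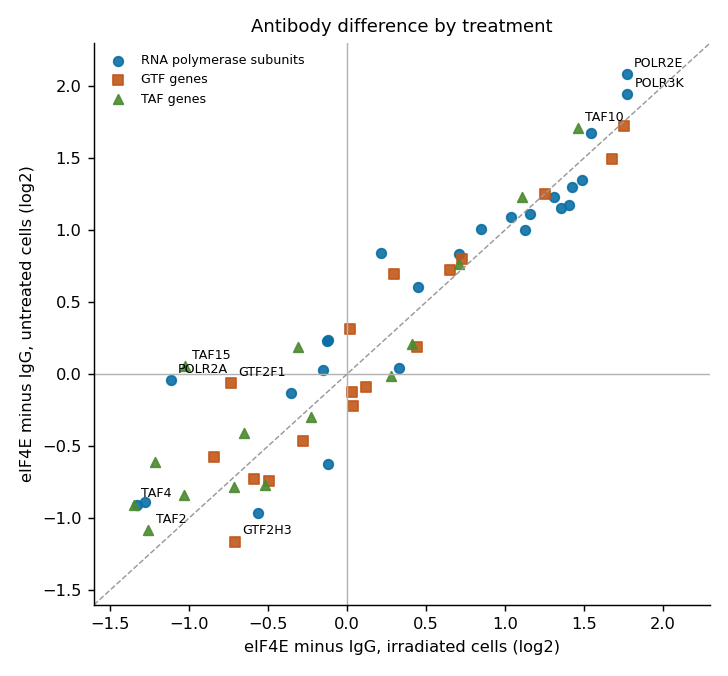
Antibody difference (eIF4E minus IgG, log2) of the 57 tested genes in irradiated cells (horizontal axis) against untreated cells (vertical axis); the dashed line marks equal values. POLR2A, TAF15 and GTF2F1 lie left of the line, at -1.11, -1.02 and -0.73 in irradiated cells and at -0.04, 0.06 and -0.06 in untreated cells.

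Of the members called in 1 treatment, POLR2A, GTF2F1, GTF3C1, TAF1 and TAF15 were lower and TAF6 was higher in irradiated cells, and POLR3D and GTF2IRD1 were higher and GTF3C3 was lower in untreated cells. POLR2A, TAF15 and GTF2F1 lay farthest from the diagonal. POLR2A differed by -1.11 ± 0.30 (SE; adjusted p = 0.00455) in irradiated cells and by -0.04 (adjusted p = 0.918) in untreated cells. TAF15 had signals of 902, 604 and 638 in irradiated and 1051, 754 and 953 in untreated eIF4E precipitates, against 2458, 1196 and 1029 in irradiated and 1338, 776 and 645 in untreated IgG precipitates. Irradiated IgG replicate 1 was its highest array, and it differed by -1.02 ± 0.29 (SE; adjusted p = 0.00679) in irradiated cells and by 0.06 (adjusted p = 0.881) in untreated cells. GTF2F1, the large subunit of TFIIF, had signals of 371, 294 and 329.5 in irradiated and 364, 374 and 344 in untreated eIF4E precipitates, against 625, 521 and 534 in irradiated and 349, 398 and 385 in untreated IgG precipitates. Its irradiated IgG arrays were above all others, and it differed by -0.73 ± 0.15 (SE; adjusted p = 5.87e-04) in irradiated cells and by -0.06 (adjusted p = 0.750) in untreated cells. The test of the change between treatments did not pass for any of them, with values of -1.08 ± 0.43 for POLR2A, -1.08 ± 0.42 for TAF15 and -0.67 ± 0.21 for GTF2F1 (SE; adjusted p = 0.999 each). A difference by treatment was therefore not shown in these genes. On irradiated IgG replicate 1 the Alu signal (53246) and the 3′ to 5′ ratios of actin (5.38) and GAPDH (2.78) were also the highest of all arrays, and their part in these values was not tested.

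Irradiation within each antibody moved no member past the threshold. Of all 7178 genes 0% were higher and 0% lower in eIF4E precipitates, 0% and 0% in IgG precipitates, and 0% and 0% in the difference of the irradiation effects between antibodies. At an unadjusted p under 0.05 there were 1 of 57 members and 82 of 7178 genes in eIF4E precipitates, 7 members and 475 genes in IgG precipitates, and 3 members and 216 genes in the difference. The fit assumed the same spread of each gene in both antibodies, although replicates correlated less in the IgG groups. The counts in eIF4E and in IgG precipitates are therefore not directly comparable. That no gene passed does not show that irradiation left the recovered RNA unchanged.

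In eIF4E precipitates the member with the smallest p was TAF7, whose signals were 1777, 1383 and 1672 in irradiated and 2004, 2006 and 2064 in untreated eIF4E precipitates, against 2182, 2983 and 2466 in irradiated and 2814, 2737 and 2532 in untreated IgG precipitates. All irradiated eIF4E arrays were below all untreated eIF4E arrays, and the difference was -0.34 ± 0.14 (SE, unadjusted p = 0.0309 and adjusted p = 1.00 in limma). POLR1G was at -0.36 ± 0.21 and GTF3C3 at 0.29 ± 0.19, with the same adjusted p. Irradiated and untreated eIF4E arrays did not overlap for 5 of the 57 members, where 9.4% of all genes did not. POLR1B, POLR1F and GTF3C3 were higher in irradiated cells, and POLR2E and TAF7 were lower.

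In IgG precipitates the smallest p values were those of GTF2F1 at 0.55 ± 0.15 (SE; adjusted p = 0.613), TAF5L at 0.54 ± 0.17 (SE; adjusted p = 0.619) and POLR3E at 0.37 ± 0.14 (SE; adjusted p = 0.631). Irradiated and untreated IgG arrays did not overlap for 8 members, where 8.68% of all genes did not. POLR1C, POLR3E, GTF2F1, GTF2IRD1, TAF1 and TAF5L were higher in irradiated cells, and GTF2H3 and GTF3C4 were lower. The plot of both irradiation effects shows a wider spread in IgG precipitates than in eIF4E precipitates.

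**Figure D4:**
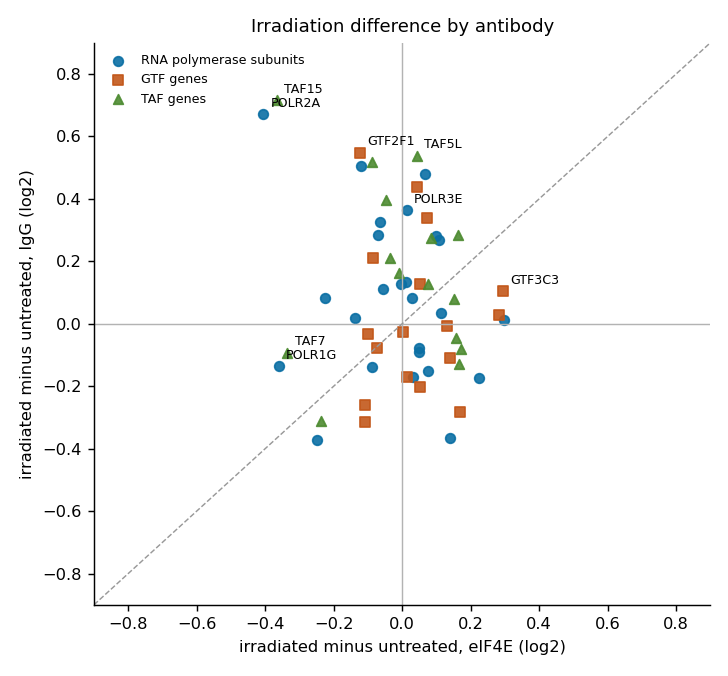
Irradiation difference (irradiated minus untreated, log2) of the 57 tested genes in eIF4E precipitates (horizontal axis) against IgG precipitates (vertical axis), with the dashed line at equal values. Values run from -0.41 to 0.30 in eIF4E precipitates and from -0.37 to 0.71 in IgG precipitates, and none passed the test.

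What else the members share was described from RefSeq. Genes that were higher in eIF4E precipitates covered a median of 11.2 kb of the genome (1.17 to 148.7 kb, n = 25), those that were lower 37.77 kb (2.3 to 164.17 kb, n = 18), and those that did not pass 26.36 kb (n = 14). The higher group includes TAF12, and the lower group includes TAF1, which sets its upper end at 164.17 kb. Both passed the filter only through the antibody in which they were brighter, and both are also in the correlations. Across POLR genes the antibody difference and the log10 of that span had a Pearson r of -0.591 and a Spearman rho of -0.618 (n = 25). Across TAF genes these were -0.411 and -0.504 (n = 15), and across GTF genes -0.149 and -0.157 (n = 17). Over all genes tested with a span the same correlations were -0.462 and -0.47 (n = 7177). The genes share the same 12 arrays and are no replicates of each other.

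**Figure D5:**
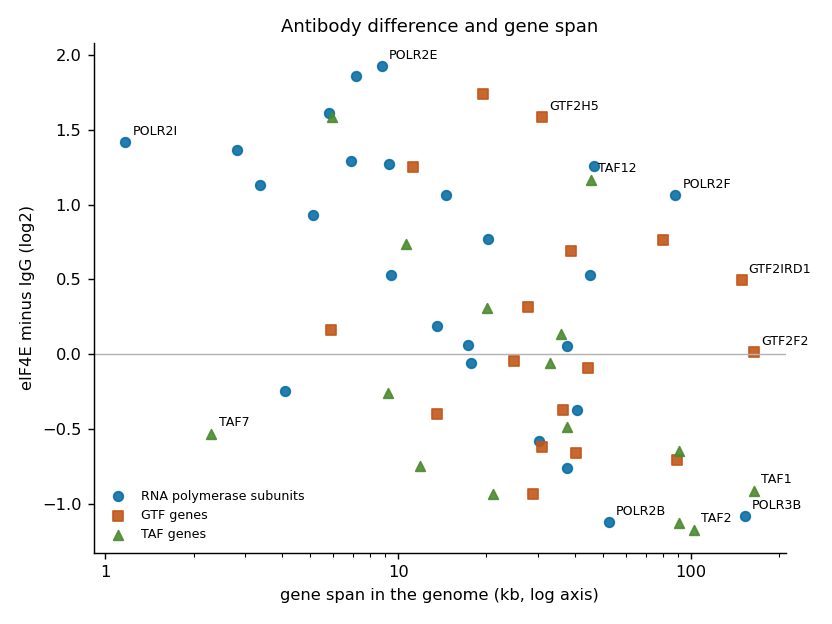
Antibody difference (eIF4E minus IgG, log2; vertical axis) of the 57 tested genes against the span of the gene in the genome in kb (horizontal log axis), with POLR, GTF and TAF genes by symbol. POLR2E, POLR2I and other short genes lie at the upper left, POLR3B and TAF2 at the lower right, and TAF7, GTF2IRD1 and GTF2F2 away from that trend. TAF1 and TAF12 passed the filter only through the antibody in which they were brighter.

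Promoter windows of 300 bases, 250 before and 50 after the annotated start, were matched for 53 of the 65 members, at the first listed start of each gene, and searched on both strands. The ETS factor core CCGGAAG was in 23 of the 53 (43.4%), against 14.2% of the windows of 15843 protein-coding genes. It was in 33.3% of POLR, 58.8% of GTF and 38.9% of TAF windows. The YY1 core ATGGCGGC was in 7 of the 53 (13.2%), against 4.5% of all, in POLR1C, POLR2H, POLR2L, GTF2H1, GTF3C5, TAF1 and TAF5. The TATA box letters TATAAA were in GTF2B, GTF3C3 and TAF4B only (5.7%), against 9.6% of all. None of these motifs contains another, and a match describes letters in the window, not a factor bound there. The shares over the genes tested on these arrays were not computed. A gap to all protein-coding genes is therefore not shown to be particular to the members.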

How the data were processed

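Per the labels' protocols, RNA of 12 precipitates was prepared with a commercial RIP-chip kit and hybridised to 1 Affymetrix array each. The deposited table holds 1 intensity per probe set and array on a linear scale, made by the authors with MAS5, per the submitters' processing notes (version not given in the sources used here); scan details were not used. The trimmed mean of every array was 500.2, so signals are relative within an array. Each gene was represented by its brightest single-gene probe set (_x_at only where no other), named from the platform annotation. Genes under the 40th percentile of mean log2 signal (57.4) were left out, as were 3 pseudogene and 12 several-gene probe sets that matched the rule.

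The limma package (3.58.1, under R 4.3.3) was fitted, with lmFit and eBayes with trend, to log2(signal + 16), which understates changes of dim genes, with 4 group means over 12 arrays and Benjamini-Hochberg adjustment over 7178 genes at 0.05. Errors are the fit's SE. Scripts were tested on simulated data. The number of arrays limits the precision. No 2 arrays were identical. The members, the lists and the naming rule were chosen with earlier results of these data known. The rule names the 4 highest and 4 lowest members of each family, the 3 smallest p in each irradiation comparison, and genes whose probe sets disagree. TFIIH, TBP and TFIIIB, SNAPc and RNA polymerase I factors, elongation factors, Mediator and mitochondrial transcription were the other lists. Alternatives were the added constant, filter, normalization, variance trend, probe set choice, samples fitted, arrays left out and a replicate block. Deviations of same-numbered arrays correlated at 0.374, 0.208 and 0.181 between irradiated and untreated eIF4E precipitates, a pairing read from the data, not from labels. In every other pair of groups at least 1 number was under 0.1. Replicate 1 correlated highest in every pair of groups, at 0.0956 to 0.374. Figures were drawn with matplotlib 3.10.9.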

Additional observations from a re-analysis of the deposited data

Results flagged for a closer look

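The array's annotation gives 12 probe sets to several genes of which at least 1 matches the symbol rule, and these were left out of the comparisons. Of the 12, 3 were higher on every eIF4E array than on every IgG array, 1 was lower and 8 overlapped. Of the genes tested 49.9% did not overlap, but the 12 were not filtered by brightness as those genes were. Geometric means of 8.0, 18.2 and 21.4 lay under the filter, and these dim probe sets all overlapped. The probe set shared by AK6 and TAF9, which encode an adenylate kinase and a histone-fold TAF of TFIID, had signals of 2955 to 3682 on eIF4E arrays and 1347 to 1667 on IgG arrays, a difference of 1.03 on the log2(signal + 16) scale. The probe set shared by POLR2J, POLR2J2, POLR2J3, POLR2J4 and UPK3BL1 had 734 to 1081 on eIF4E arrays and 272 to 376 on IgG arrays, a difference of 1.56. The probe set shared by MYZAP, GCOM1 and POLR2M had 124 to 193 on eIF4E arrays and 36.5 to 123 on IgG arrays, a difference of 0.84. The brighter probe sets of GCOM1 and POLR2M did not follow it: 1 was lower, at 408 to 506 on eIF4E arrays and 685 to 1216 on IgG arrays, a difference of -1.02, and the other overlapped at -0.27. Which of the genes gave these signals was not tested, and no test was run on the differences.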

How the results depend on the processing

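Of the 43 members called over both treatments, 32 kept their call under all 22 alternatives, 4 (POLR1B, TAF1, TAF12 and TAF13) kept it under 21 and were too dim to be tested with the filter at the 60th percentile, 7 lost it at least once and 0 changed sign. The replicate block gave the same counts as the fit without it (43 members over both treatments, 40 in irradiated and 37 in untreated cells, 0 in the irradiation comparisons). With the filter at the 60th percentile the count of lower POLR genes was 2 in place of 4, since fewer genes were tested; the other counts stayed within 1.5 times. With single arrays left out the members called were 39 to 43 over both treatments, 35 to 40 in irradiated cells, 34 to 39 in untreated cells and 0 to 0 in each irradiation comparison. POLR higher was 14 to 15 and lower 3 to 4, GTF higher 6 to 6 and lower 5 to 6, TAF higher 3 to 4 and lower 7 to 8. The cause of the following changes was not tested. TAF15 lost its call in 12 alternatives (adjusted p 0.0512 to 0.142), among them the omission of irradiated eIF4E replicate 2 or 3, untreated eIF4E replicate 2 or 3, irradiated IgG replicate 1 and untreated IgG replicate 1 or 2. POLR2A lost it in 6 (adjusted p 0.0538 to 0.0747), among them both normalizations. GTF2F1 lost it with quantile normalization (-0.24), GTF3C2 with the mean of its probe sets (-0.16), GTF3C3 with both normalizations, GTF3C3, POLR3D and TAF6 without untreated eIF4E replicate 3, and TAF6 also without untreated eIF4E replicate 1 and without replicate 1 of every group. POLR3G gained a call without irradiated IgG replicate 1 (-0.54) and without replicate 1 of every group (-0.69), and POLR1G without irradiated eIF4E replicate 2 (-0.35). The sign changed among 8 members that were not called. With quantile normalization TAF5L was at 0.10, POLR1E at 0.10 and GTF3C4 at 0.082. With median centring TAF5L was at 0.041, POLR1E at 0.041, GTF3C4 at 0.052 and GTF2H1 at 0.010, and with the mean of its probe sets GTF2H1 was at 0.14. With single arrays left out GTF2H1 lay at -0.18 to 0.020, POLR3F at -0.049 to 0.19, GTF2F2 at -0.14 to 0.12, POLR1E at -0.14 to 0.017 and GTF3C4 at -0.093 to 0.031. Without replicate 1 of every group POLR3F was at -0.12, TAF1A at -0.064, GTF3C5 at -0.0057 and GTF2F2 at -0.34 (adjusted p = 0.0456). Adding genes by updated symbol gave no value, since 0 genes matched. Dim signals limit TAF1, TAF12 and POLR1B, and no outlier statistic was computed within groups of 3 arrays.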

Other observations

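Genes outside the rule that work with these factors were read from lists drawn up with earlier results known. Of 17 tested Mediator genes, which bridge activators and RNA polymerase II, 7 were higher and 6 lower in eIF4E than in IgG precipitates, with a median of 0.35. The highest was MED8 at 1.25 ± 0.11 and the lowest MED1 at -1.57 ± 0.11 (SE). TBP itself was higher, at 0.92, and was the only one of 3 tested genes of TBP and TFIIIB to pass. Of 12 tested pausing and elongation factors 3 were higher and 4 lower, with CDK9, the kinase that releases paused polymerase, at 1.04 and its cyclin partner CCNT2 at -1.13. Of 7 SNAPc and RNA polymerase I factors SNAPC2 was highest at 1.36 and RRN3, which readies RNA polymerase I, lowest at -0.48, with 2 higher and 1 lower in all. Of 5 mitochondrial transcription genes 2 were higher and 0 lower, and TFB1M was highest at 0.44. Over all genes tested 32.5% were higher and 38.2% lower.

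Both shared probe sets of GTF2I and its pseudogenes overlapped between eIF4E and IgG arrays, at -0.26 and -0.35.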
